A study of Mus musculus with 12 samples.

Results

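Mouse CD4+ T cells still changed the level of many genes when phorbol 12-myristate 13-acetate (PMA) plus ionomycin was given in the presence of cyclosporin A (CsA), and that remaining response is described here. It was measured by comparing the libraries labelled CsA_PI with those labelled CsA_US. These are 6 of the 12 RNA sequencing libraries of the series. The main result rests on 5 of them, CsA_PI 1 and 3 against CsA_US 1 to 3, because the library labelled CsA_PI 2 did not carry the stimulation response (values below), and the result with all 6 is given beside it. Of the genes with enough reads for testing, all 15057 were examined.

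The cells were total CD4+ T cells from spleens of C57BL/6 mice, purified untouched, that is, by removing other cells rather than by binding CD4. The CsA_US cells had 1 µM CsA for 1 h and no stimulus. The CsA_PI cells had the same pretreatment and then 10 nM PMA with 1 µM ionomycin for 2 h. The reference groups, ethanol_US and ethanol_PI, had ethanol, the vehicle of CsA, in place of the drug, and were otherwise handled alike. Each group had 3 libraries made by SMART-seq, which copies whole polyadenylated transcripts and amplifies them by PCR. The labels name no genotype beyond the strain, give no ages, and do not say whether the libraries of a group came from separate mice, so the spread behind each p-value may be only technical. Library totals ran from 10523816 to 18468044 estimated counts, from which levels are given as CPM, counts scaled to library size. A floor of 3 counts, the upper limit for a gene with no count (counting error only), corresponded to between 0.142 CPM (CsA_US 1) and 0.368 CPM (ethanol_PI 3).

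PMA stands in for diacylglycerol and switches on protein kinase C and RasGRP1, which drive the Ras-ERK kinase cascade and the release of NF-κB. ERK acts on serum response factor and its ETS partners at immediate-early genes such as Egr1 and Fos. Ionomycin lets calcium in, and calcium activates the phosphatase calcineurin, whose substrate NFAT then moves into the nucleus and often binds beside AP-1. CsA, held by cyclophilin, occupies calcineurin. What responds while it is present is therefore called the calcineurin-independent programme, a name taken from the drug's known target and not from a measurement of calcineurin activity or of NFAT in these cells.

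One library went against its label. Across genes, the log2 levels of the library labelled CsA_PI 2 correlated at 0.9925 with those of ethanol_US 2, the highest value among the 66 library pairs. Its correlations with CsA_PI 1 and CsA_PI 3 were 0.9284 and 0.9384, whereas same-group pairs without it lay between 0.9642 and 0.9784. Between it and ethanol_US 2, 0.283% of 10263 well-counted genes differed at least 2-fold, and the median chi-square per gene was 0.986 against at least 2.73 in every other pair. On an axis on which the CsA_US mean is 0 and the mean of CsA_PI 1 and 3 is 1, its median position over 2574 genes was 0.128, and that of ethanol_US 2 was 0.129. That axis was built from CsA_PI 1 and 3, so their own position at 1 is not a result.

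The same library also lay with ethanol_US on the genes that separated CsA_US from ethanol_US. On the 7 genes called between CsA_US and ethanol_US (0.0465% of genes tested), where ethanol_US is 0 and CsA_US is 1, its median position was -0.0652. The CsA_US libraries lay at 0.932 to 1.07, but that axis was built from CsA_US and ethanol_US, so their own positions are not a result. CsA_PI 1 and 3 were not placed on that axis, so where stimulated cells with CsA lie on it is not known. Egr2 stood at 6.72, 7.88 and 4.65 CPM in CsA_US 1 to 3 and at 44.8 CPM in the library labelled CsA_PI 2, close to the ethanol_US mean of 51.9 CPM. Stimulation under CsA also raised Egr2 (below), so its level alone cannot decide whether a mark of the drug was missing. In the library labelled CsA_PI 2, stimulated levels were not reached either: Egr1 was at 62.5 CPM, against 1061 and 1199 CPM in CsA_PI 1 and 3. How it came to lack the response was not tested.

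**Figure D1:**
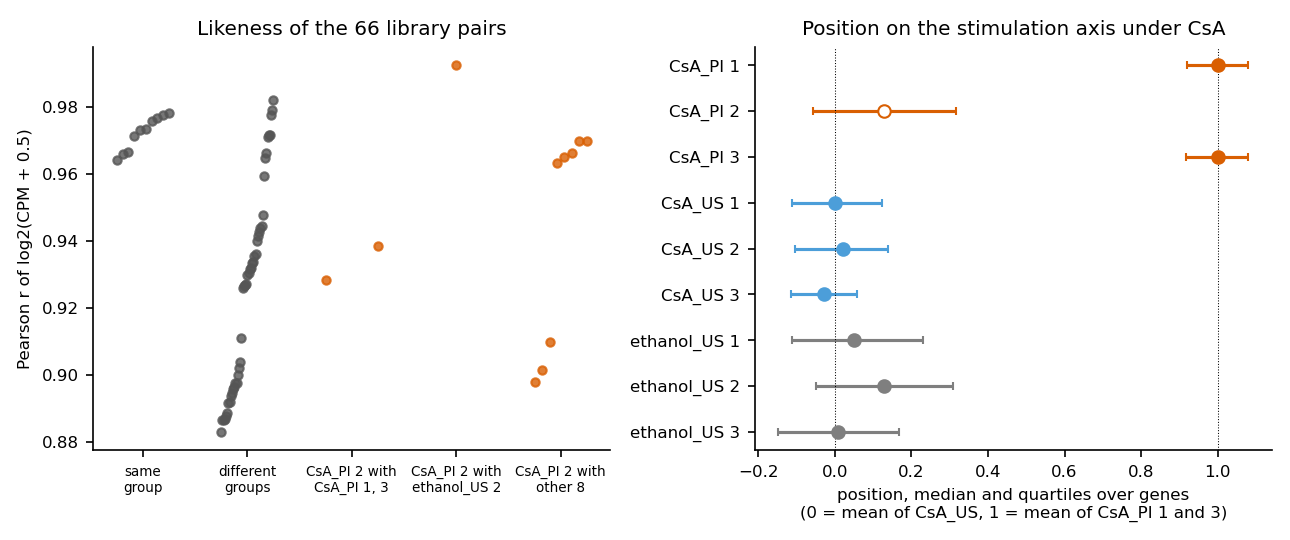
Left, Pearson correlation of log2(CPM + 0.5) for each of the 66 library pairs, sorted by kind of pair. Right, position of each library on the stimulation axis under CsA (median and quartiles over 2574 genes, open symbol for the library labelled CsA_PI 2). The library labelled CsA_PI 2 sits at 0.128 beside ethanol_US 2 at 0.129, far from CsA_PI 1 and 3, whose mean defines 1.

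The 12 T cell identity genes, Cd4 and Cd3e among them, summed to 5748, 5318 and 6169 CPM in CsA_US and to 7680 and 8277 CPM in CsA_PI 1 and 3. Of these genes, 5 were called higher and 3 lower, at a median log2 change of 0.34. Cd28 and Cd2 rose and Cd3g fell, so the sum does not stand for each member. Libraries numbered 2 also held more RNA of other blood cells. Summed over 11 myeloid and dendritic markers, CsA_US 2, ethanol_US 2, ethanol_PI 2 and CsA_PI 2 stood at 242.3, 271.1, 246.4 and 266.3 CPM, and the other 8 libraries between 39.2 and 64.9 CPM. B cell markers summed to 2317, 4148 and 2298 CPM in CsA_US 1 to 3 and to 3719 and 2879 CPM in CsA_PI 1 and 3, so these 2 groups overlapped. The median log2 change over the members nevertheless lay below that of all genes, at -1.66 for the B cell and -1.27 for the myeloid list. With all 12 libraries these medians were 0.13 and 0.50. The main comparison keeps CsA_US 2 and leaves out CsA_PI 2, so libraries numbered 2 are unbalanced in it. Cd79b, part of the B cell receptor, stood at 35.5, 321 and 57.8 CPM in CsA_US and at 9.73 and 9.97 CPM in CsA_PI 1 and 3, without overlap (-3.80, adjusted p = 0.101), and a call was made with replicate numbers blocked (-2.32, adjusted p = 0.000553), with DESeq2 (adjusted p = 0.00602) and with the libraries numbered 1 and 3 only (adjusted p = 0.000606). With all 12 libraries the Cd79b change was -0.24 and was not called. Of all genes tested, 26.3% likewise lay lower in CsA_PI 1 and 3 without overlap. The part of B cells and myeloid cells in the results below was not tested. Between CsA_PI 1, 3 and CsA_US, 0 of 10 B cell, 0 of 7 CD8 and NK cell and 0 of 8 erythroid and platelet markers were called, and 1 of 11 myeloid markers (Itgax) was. With replicate numbers blocked, 1 B cell marker was called higher and 2 lower, and 2 myeloid markers were called higher. Counts of calls with the libraries numbered 2 left out of every group are given in the closing section, and they lie within 1.5 times those given here.

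Stimulation under CsA moved genes in both directions. Relative to CsA_US, 2125 genes rose (14.1% of the 15057 tested) and 2196 fell (14.6%) at a Benjamini-Hochberg adjusted p under 0.05 in edgeR's quasi-likelihood test, the test behind every adjusted p below. At least a 2-fold change was seen in 1161 of the risen genes (7.71%) and 1413 of the fallen ones (9.38%), and at least a 4-fold change in 339 (2.25%) and 354 (2.35%). Without overlap between CsA_PI 1, 3 and CsA_US, 4221 genes (28.0%) lay higher and 3960 (26.3%) lower, so separation alone says little here. With the library labelled CsA_PI 2 kept, 561 genes rose and 199 fell (3.9% and 1.38% of 14398 tested). Scaling by library totals in place of TMM, which assumes that most genes keep their level, put the split at 1211 higher and 3695 lower and shifted the median gene under CsA to -0.36 on the log2 scale. Every change below is relative to the TMM scale, and less RNA per cell cannot be told apart from fewer cells of a type in such bulk libraries.

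In vehicle, on libraries that the CsA comparison does not share, the same stimulus raised 3135 genes (20.8%) and lowered 3446 (22.9%). Of the 2078 genes that it raised at least 2-fold (13.8%), 1141 (54.9%) were also called higher under CsA, 21 were called lower and 916 were not called, to be read against the 14.1% of all genes called higher under CsA. The log2 change under CsA was a median 0.462 of that in vehicle (quartiles 0.226 and 0.744) over these 2078 genes. Choosing genes by a large vehicle value favours a ratio under 1, and its part was not tested. The interaction, which is the log2 change under CsA minus that in vehicle, was called negative in 821 of them (39.5%) and positive in 24, while over all genes 765 were called positive (5.08%) and 1100 negative (7.31%). Another 725 rose in both settings with no call on the difference, which does not show that their responses were equal.

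Fallen genes were counted by the same measure. Among 2332 genes lowered at least 2-fold in vehicle (15.5% of those tested), 1266 (54.3%) were called lower under CsA, read against 14.6% of all genes, and the median ratio of the log2 changes was 0.605. The interaction was called toward a smaller fall in 428 of them. Whether the ratios for risen and fallen genes differ was not tested. With all 12 libraries, 400 of 2065 induced genes (19.4%) were called higher and 109 of 2044 lowered genes (5.33%) lower, at nearly equal median ratios of 0.351 and 0.345.

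With genes chosen from the CsA side, the counts were more even. Choosing genes by a large value under CsA favours that value, and its part was not tested. Of the 1161 genes that rose at least 2-fold under CsA, 867 (74.7%) also rose in vehicle, 36 fell there and 258 were not called. Over all genes 20.8% rose in vehicle and 22.9% fell. Their median log2 rise was 1.58 under CsA and 1.49 in vehicle, and the interaction was called positive in 177 and negative in 200. Of the 1413 genes that fell at least 2-fold under CsA, 1119 (79.2%) fell in vehicle, 23 rose there and 271 were not called. Across all 15057 genes the log2 changes in the 2 settings correlated at 0.552 (Pearson) and 0.603 (Spearman), a description over genes that share libraries and are not independent.

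**Figure D2:**
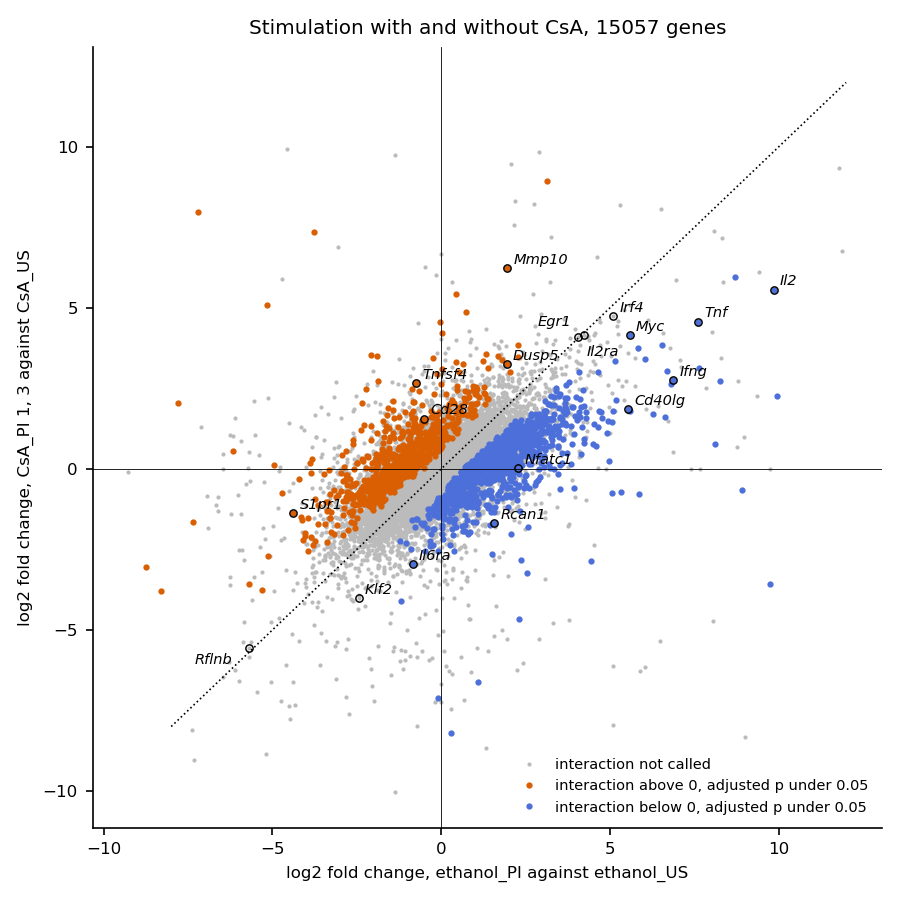
Log2 fold change of each of the 15057 genes in vehicle (horizontal, ethanol_PI against ethanol_US) and under CsA (vertical, CsA_PI 1 and 3 against CsA_US); the dotted line marks equal change, and colour marks a called interaction. Egr1 and Il2ra lie on the line, Mmp10 and Dusp5 above it, and Il2, Tnf, Ifng and Cd40lg to the right of it.

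The Egr factors are zinc-finger proteins made within minutes of ERK activation. Egr1 was at 73.2, 61.6 and 51.1 CPM in CsA_US 1 to 3 and at 1061 and 1199 CPM in CsA_PI 1 and 3. The groups were far apart, and the stimulated level lay near the 1288, 1187 and 1297 CPM of ethanol_PI. Its log2 change was 4.17 ± 0.20 (SE; adjusted p = 1.21e-07) under CsA and 4.23 in vehicle, and the interaction of -0.06 had a 95% interval from -0.62 to 0.49. Using all 12 libraries, the change was 3.65 (adjusted p = 0.0423).

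Egr2 reached an equal fold from a lower floor. It went from 6.72, 7.88 and 4.65 CPM to 122 and 210 CPM under CsA, a log2 change of 4.66 ± 0.37 (adjusted p = 5.61e-06) beside 4.68 in vehicle. The stimulated level stayed far below the 1438, 1292 and 1394 CPM of ethanol_PI, and the unstimulated level was itself lower with CsA than with ethanol, where it was 79.6, 44.0 and 32.2 CPM (adjusted p = 0.00771). Equal folds here therefore stand for unequal levels. Of the 6 genes in the Egr and Nab list, 5 rose under CsA and none fell, among them Nab2 (log2 2.53), a corepressor of Egr proteins, whose rise in vehicle was larger (3.41, interaction called). Egr3 was not called (2.76, adjusted p = 0.0544). The list median was 3.46 under CsA and 4.46 in vehicle, beside -0.01 and -0.08 over all genes tested, and 2 of its genes were called with all 12 libraries.

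Transcripts for AP-1, the dimer of Fos and Jun proteins, rose too. Of 12 family members tested, 10 rose under CsA and none fell, with a median log2 change of 1.51 against 2.35 in vehicle. Fos stood at 110, 91.8 and 89.9 CPM in CsA_US and at 399 and 414 CPM in CsA_PI 1 and 3, with no overlap, against 524, 476 and 565 CPM in ethanol_PI. Fos rose by 2.04 ± 0.15 on the log2 scale (adjusted p = 1.19e-06), and the difference from vehicle was not called (interaction -0.56, adjusted p = 0.0908). Fosl1 rose most in the list (4.61), followed by Atf3 (3.25) and Fosb (2.30), while Jun (1.10) and Junb (0.82) rose less. Jund (-0.48) and Mafg (0.06) were not called. The interaction was called negative in 4 members, Fosl2, Maff, Mafk and Mafg, and 5 members were called higher with all 12 libraries.

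Nr4a1, an orphan nuclear receptor used as a reporter of antigen receptor signalling, went from 784, 615 and 525 CPM to 8962 and 9672 CPM. Stimulated vehicle libraries held 21080, 15760 and 18870 CPM, above both CsA libraries. Its log2 change was 3.84 ± 0.24 (adjusted p = 3.29e-07) under CsA and 4.71 in vehicle (interaction -0.88, adjusted p = 0.0864). Its relatives kept less: Nr4a3 rose by 1.94 against 3.87 in vehicle and Nr4a2 by 0.68 against 3.45, each with a called interaction (adjusted p = 0.00365 and 2.85e-05). The Nr4a2 call was lost without CsA_PI 3 (0.61, adjusted p = 0.071) and with library totals (0.33, adjusted p = 0.13). Myc, the growth regulator, rose from 35.0, 49.1 and 32.9 CPM to 672 and 747 CPM under CsA but to between 3668 and 3845 CPM in vehicle, and the difference of the log2 changes, -1.41, was called (adjusted p = 0.0125). In a list of 26 other immediate-early genes, which counts Myc as a member, 17 rose and 1 fell (Klf6, -1.21). Of the list, 8 had a called negative and 1 a called positive interaction (Sgk1).

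ERK induces its own brakes, the dual-specificity phosphatases and Sprouty proteins. Of 15 such genes, 8 rose under CsA and 1 fell (Dusp7, -1.91), at a median of 0.86 against 1.69 in vehicle. The count of rises was 5 without CsA_PI 3. Dusp5, a nuclear phosphatase for ERK, stood at 462, 392 and 355 CPM in CsA_US and at 3985 and 3836 CPM in CsA_PI 1 and 3. Those levels exceeded the 1307, 871 and 1142 CPM of ethanol_PI without overlap. Its log2 change was 3.26 ± 0.19 under CsA (adjusted p = 2.69e-07) and 1.94 in vehicle, and the interaction of 1.31 ± 0.25 was called (adjusted p = 0.00394). With all 12 libraries the change of 2.74 missed the threshold (adjusted p = 0.0527). Dusp2 (2.89) and Dusp6 (2.23) rose with no call on the difference from vehicle. Spry4 had no count in CsA_US and 57 counts in CsA_PI 1 and 3 together, at least 42.1-fold higher against a floor of 3 counts over the group. Spry1 (0.70, not called) rose in vehicle by 4.58, with a called interaction.

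Promoters of 2 genes named above are shown because each holds a CArG box, the binding element of serum response factor. Of 21 named risen genes whose windows were searched, these 2 alone held one within at most 250 bases before an annotated start. The windows of Fos, Jun, Junb, Nr4a1, Dusp2 and Il2ra held none, but bases further upstream were not searched. Egr1 was not among these 21 genes, so its window was not examined. The letters come from RefSeq, build GRCm38.p6, in the direction of the gene, and cover the 250 bases before the annotated start; those of Dusp5 stop where GENCODE places its first exon, 36 bases earlier. Capitals mark matches to the searched motifs on either strand. In Dusp5 these are an NFAT core (GGAAA) 90 bases before the start and adjoining CArG boxes at 82 and 72 bases. In Egr2 they are a CArG box at 72 bases and an NFAT core on the opposite strand (TTTCC) at 8 bases. RefSeq lists 5 starts for Egr2, and 4 of their windows hold a CArG box; the one printed was chosen after its letters were seen. Dusp5 lies at chr19:53529109-53542431 and Egr2 at chr10:67535475-67542188, both on the plus strand. The Egr2 window is inside the gene, in an intron of longer transcripts, and an antisense transcript covers that of Dusp5.
Dusp5 (chr19:53528895-53529108, plus strand): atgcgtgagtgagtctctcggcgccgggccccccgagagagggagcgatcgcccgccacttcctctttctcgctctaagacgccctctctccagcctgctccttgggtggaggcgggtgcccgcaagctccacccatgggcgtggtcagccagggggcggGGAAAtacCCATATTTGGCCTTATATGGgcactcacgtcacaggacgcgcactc
Egr2 (chr10:67537619-67537868, plus strand): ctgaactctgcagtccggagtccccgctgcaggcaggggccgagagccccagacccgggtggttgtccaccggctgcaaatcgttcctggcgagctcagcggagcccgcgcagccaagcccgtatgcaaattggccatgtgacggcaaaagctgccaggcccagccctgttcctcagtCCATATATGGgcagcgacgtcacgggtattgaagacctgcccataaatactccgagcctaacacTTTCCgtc

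The NF-κB list answered broadly. Of 23 subunits, signalling proteins and feedback inhibitors, 17 rose under CsA and 2 fell, at a median log2 change of 1.13 against 1.88 in vehicle. Rel, the subunit tied most closely to lymphocyte activation, went from 153, 218 and 170 CPM to 989 and 1049 CPM, with no overlap and a log2 change of 2.48 ± 0.23 (adjusted p = 7.64e-06). Nfkb1 (2.36), Nfkbiz (2.19), Nfkb2 (1.85), Malt1 (1.80) and Relb (1.69) rose as well. The list's largest rise was that of Nfkbid, a nuclear IκB protein, at 3.76 under CsA and 5.84 in vehicle, a called difference. Interactions were called negative for 9 members and positive for 4, namely Tnip1, Birc2, Birc3 and Traf1. The list's fallen members were Tnip1 (-1.07) and Cyld (-0.76), both negative regulators. In the fit of all 12 libraries 9 members rose and 1 fell.

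Nfkbia, which encodes IκBα, the inhibitor that NF-κB itself resupplies, did not follow the others. It stood at 948, 983 and 991 CPM in CsA_US and at 1124 and 1064 CPM in CsA_PI 1 and 3. The stimulated libraries were a little higher without overlap, as they were for 28.0% of all genes. The change was not called (0.15 ± 0.16, adjusted p = 0.544) and was -0.20 with library totals. In vehicle it rose to 3471, 3018 and 3361 CPM (log2 2.07), and the interaction of -1.93 was called (adjusted p = 0.000147).

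Among the surface markers of activation, 11 of 14 rose under CsA and none fell, at a median of 1.20 against 1.95 in vehicle. Il2ra, the high-affinity chain of the interleukin 2 receptor, went from 44.9, 29.7 and 44.0 CPM to 660 and 707 CPM. This lay just under the 851, 720 and 893 CPM of ethanol_PI. Its log2 change was 4.08 ± 0.24 (adjusted p = 2.58e-07) under CsA and 4.06 in vehicle, and the interval of the interaction ran from -0.63 to 0.68. The other chains of the receptor, Il2rb (1.69) and Il2rg (1.85), and the adhesion receptor Cd44 (2.65) rose too. Cd69, an early activation antigen that opposes egress from tissue, rose by 3.01 against 4.08 in vehicle, and the transferrin receptor Tfrc by 2.24 against 3.98, both with called interactions. Slamf1 (0.46), Cd83 (0.66) and Tnfrsf4 (0.62) were not called, although each rose in vehicle. Of the list, 7 were called with all 12 libraries.

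**Figure D3:**
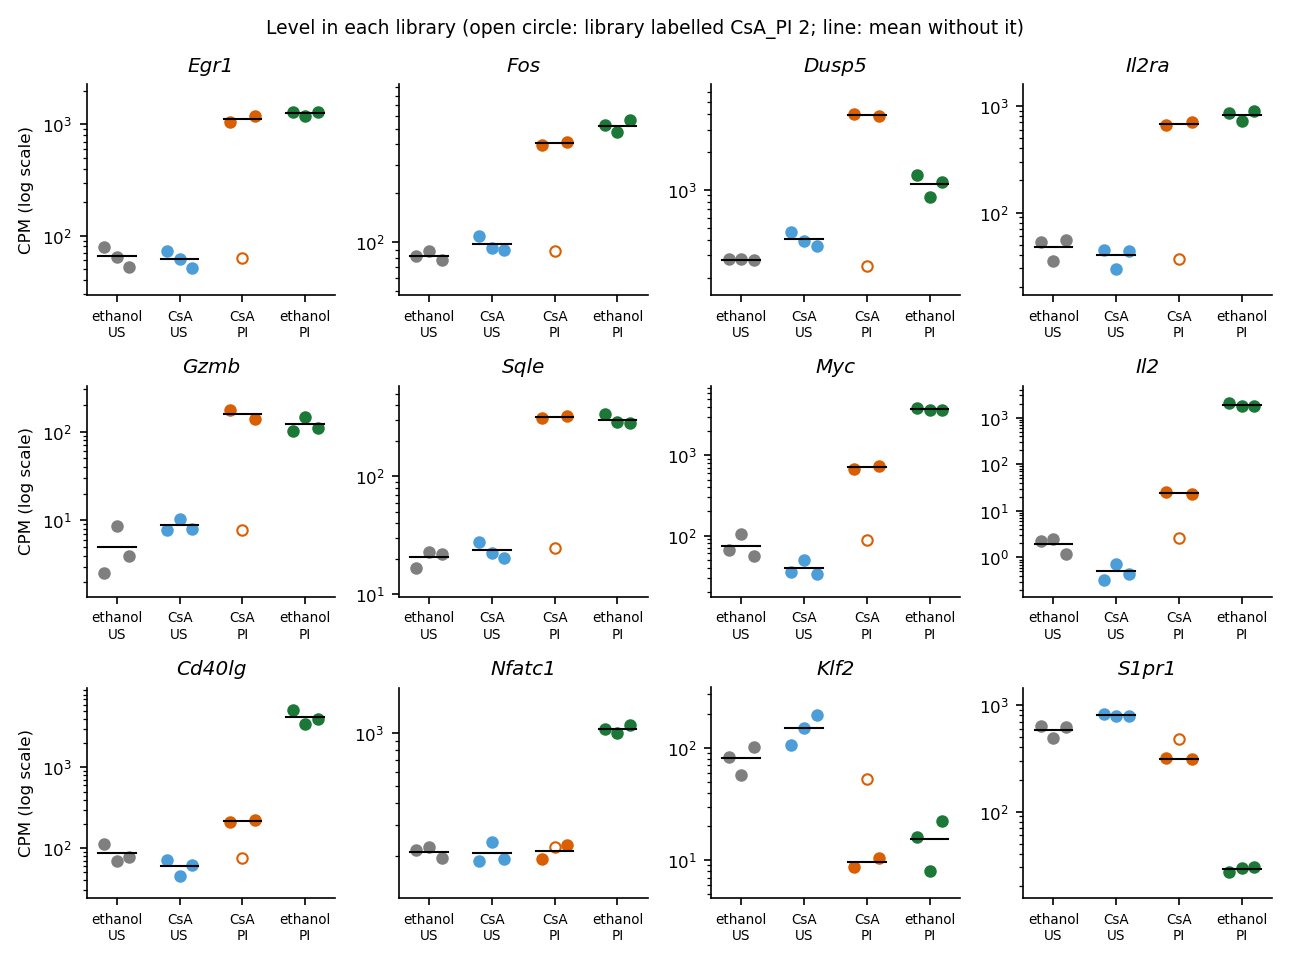
Level of 12 genes in each of the 12 libraries (CPM, log axis), by group; lines are group means without the library labelled CsA_PI 2, which is the open circle. Egr1, Il2ra, Gzmb and Sqle reached similar levels in both stimulated groups, Dusp5 was higher with CsA, Il2 and Cd40lg were far lower with it, and Nfatc1 stayed near its unstimulated level.

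Most cytokine genes rose under CsA, to levels far under those in vehicle. Of 21 tested, 13 rose and none fell, at a median log2 change of 2.61, or 2.64 without Il3 and Il9, which had no count in either CsA group used. In vehicle the median was 6.80, and 10 interactions were called negative and 1 positive (Il16, which fell in vehicle). Il2, the growth factor of T cells, went from 0.331, 0.739 and 0.450 CPM to 25.3 and 23.3 CPM. That is a separation from a base of 25 counts in all, and the stimulated level remained far under the 2060, 1818 and 1753 CPM of ethanol_PI. The log2 change was 5.57 ± 0.30 (adjusted p = 2.12e-07) against 9.85 in vehicle, and the interaction of -4.28 was called (adjusted p = 0.000119).

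Tnf went from 9.89, 9.91 and 11.3 CPM to 256 and 244 CPM, and to 4610, 2959 and 3460 CPM in vehicle. The log2 changes of 4.57 and 7.60 differed (interaction -3.03, adjusted p = 0.00019). Ifng, the cytokine that activates macrophages, rose by 2.75 under CsA, from 14.1, 7.94 and 9.45 CPM to 84.6 and 58.9 CPM, against 6.88 in vehicle. Lif rose by 5.88 against 6.95 (interaction -1.07, adjusted p = 0.19), although its level of 40.8 and 48.2 CPM in CsA_PI 1 and 3 lay far under the 316, 294 and 383 CPM of ethanol_PI. Csf2 (3.14), Lta (2.61) and Il4 (1.72) also rose with called negative interactions. Il21 (1.60) and Il22 (0.78) were not called. With all 12 libraries, 8 cytokines were called higher.

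Chemokines and TNF-family ligands were divided in the same way. Of 8 chemokines 4 rose and none fell, at a median of 1.61, or 1.85 without Ccl1, which had 5 counts in CsA_US and 0 in CsA_PI 1 and 3. Ccl4 rose by 5.95 against 8.70 in vehicle (called) and Ccl3 by 5.81 against 8.35 (interaction not called, adjusted p = 0.106). Cxcl10, a ligand for CXCR3, went the other way in size, from 10.5, 27.8 and 13.6 CPM to 976 and 971 CPM under CsA and to 258, 243 and 218 CPM in vehicle. The CsA libraries were the highest of the series, yet the interaction of 2.59 missed the threshold (adjusted p = 0.0698). Of 8 TNF-family ligands 5 rose and none fell. Cd40lg, which licenses B cells, rose by 1.85 against 5.55 in vehicle, Tnfsf14 by 1.79 against 5.60, and Tnfsf11 by 2.19 against 3.66, each with a called interaction. Fasl (-0.04) and Tnfsf9 (-0.64) were not called, while both rose in vehicle.

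Several cytotoxic granule genes reached levels near those of vehicle. Gzmb, the protease granzyme B, went from 7.85, 10.5 and 8.02 CPM to 176 and 139 CPM, overlapping the 103, 148 and 111 CPM of ethanol_PI. The rise was 4.15 ± 0.40 on the log2 scale (adjusted p = 3.19e-05) against 4.53 in vehicle, with an interaction interval from -1.53 to 0.78. Prf1, the pore-forming perforin, rose by 2.48 against 2.68. Serpinb9, the inhibitor of granzyme B, rose by 2.24 against 1.11, and that difference was called (adjusted p = 0.0312). In all, 5 of 8 granule genes rose and 1 fell (Gzmk, -1.58). CD8 and NK markers summed to 55.2, 69.2 and 50.4 CPM in CsA_US and to 62.5 and 47.3 CPM in CsA_PI 1 and 3, and their part in the granule result was not tested. The T helper lineage list held the rises of Irf4 (4.74, with 5.11 in vehicle) and Irf8 (4.11). Irf8 was at 40.6, 161 and 42.1 CPM in CsA_US, highest in the library with more myeloid RNA, and its call was lost without CsA_PI 3 (adjusted p = 0.0531). Tbx21, the factor of T helper 1 cells, rose by 1.09 against 3.93 in vehicle.

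Inhibitory genes were mixed. Of 17 inhibitory receptors and feedback genes, 5 rose and 3 fell, at a median of 0.25 against 1.88 in vehicle. Over all genes 14.1% rose and 14.6% fell, so the count of falls lay near the background. Cd274, which encodes PD-L1, rose from 85.0, 69.0 and 72.8 CPM to 768 and 952 CPM, and its log2 change of 3.48 exceeded the 2.26 of vehicle (interaction 1.22, adjusted p = 0.0163). The cytokine signal inhibitors Socs1 (2.83) and Cish (2.70) rose. Ctla4 (0.42), Cd160 (0.25) and Vsir (0.05) were not called under CsA, and each rose in vehicle with a called interaction. Pdcd1 (-0.75) and Rnf128 (-1.12) fell. Without CsA_PI 1 no member of the list was called lower.

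The calcineurin-NFAT list, the drug's own pathway, showed no general rise in either setting. Of 21 genes 1 rose under CsA (Orai1, 0.78) and 9 fell, at a median of -0.49, and in vehicle 5 rose and 6 fell, at a median of -0.36. With all 12 libraries none rose and 1 fell under CsA. The falls numbered 3 without CsA_PI 1, 5 without CsA_PI 3 and 5 without CsA_US 3. Nfatc1, whose inducible transcript depends on NFAT itself, stood at 187, 239 and 192 CPM in CsA_US and at 192 and 230 CPM in CsA_PI 1 and 3. The groups overlapped, with a log2 change of 0.02 ± 0.15 (adjusted p = 0.953), against 1053, 1004 and 1107 CPM and a change of 2.27 in vehicle. The interaction of -2.26 was called (adjusted p = 4.36e-05). Rcan1, a calcineurin inhibitor and a classical NFAT target, was at 5.39, 4.74 and 5.10 CPM in CsA_US and at 1.11 and 2.15 CPM in CsA_PI 1 and 3, so it fell (-1.68, adjusted p = 0.00311) where it rose in vehicle (1.57). That fall missed the threshold without CsA_PI 1 (-1.23, adjusted p = 0.0588), and it was -0.58 with all 12 libraries (adjusted p = 0.49). The list of protein kinase C and Ras-ERK genes, on the PMA side, had 3 rises and 4 falls of 22 (the shares over all genes are 14.1% and 14.6%), so its counts lay near the background.

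Most genes of cholesterol synthesis rose. Of 18 genes of the pathway and its regulators, 15 rose under CsA and none fell, at a median of 1.86 against 1.42 in vehicle, and 15 also rose with library totals. Sqle, squalene epoxidase, went from 27.8, 22.5 and 20.2 CPM to 314 and 324 CPM, within the span of the 336, 288 and 285 CPM of ethanol_PI. The Sqle change was 3.74 ± 0.19 (adjusted p = 1.21e-07) against 3.83 in vehicle. Cyp51, a sterol demethylase, rose by 3.09 and Idi1, an isomerase of the early pathway, by 3.05. The interaction was called positive for 6 members and negative for none. These were Hmgcs1 (3.02 against 2.03), Msmo1 (2.36 against 1.28), Fdft1 (1.73 against 0.45), Sc5d (1.11 against -0.01), Fdps (1.10 against 0.47) and Dhcr7 (0.18 under CsA, not called, against -0.89). The count was 11 with all 12 libraries.

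Ribosome biogenesis showed the opposite balance. Of 29 processing factors, nucleolar proteins and RNA polymerase I subunits, 19 rose under CsA and 1 fell, but the median was 1.04 against 2.67 in vehicle, and 28 interactions were called negative. Ppan rose by 2.17 against 4.10, Tsr1 by 2.22 against 3.35, Gnl3 by 1.93 against 3.67 and Nolc1 by 1.78 against 3.74. Polr1a (-0.13), Fbl (0.43) and Npm1 (0.34) were not called under CsA, and Wdr12 fell (-1.05). The exception among the interactions was Noc2l. The count of rises was 12 with all 12 libraries.

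**Figure D4:**
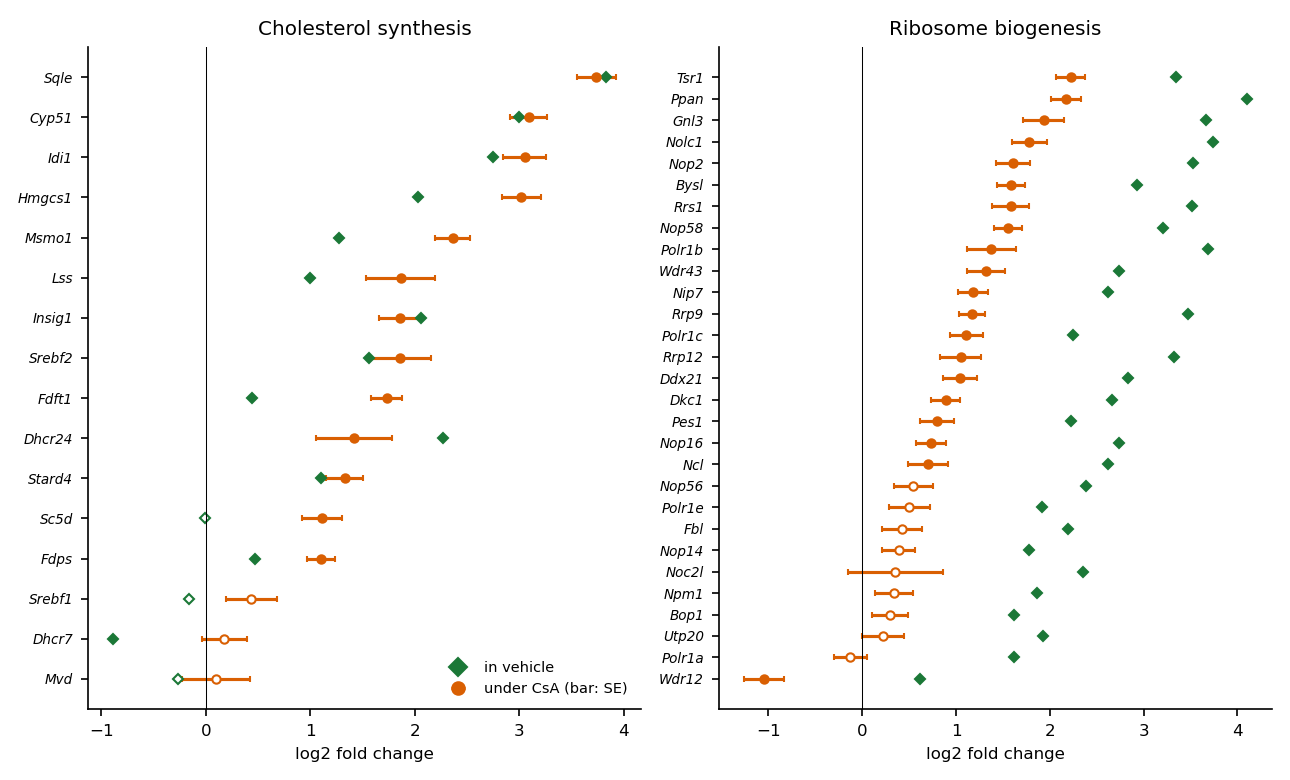
Log2 fold change of genes of the cholesterol and ribosome biogenesis lists under CsA (circles, bar for SE) and in vehicle (diamonds); filled symbols are called at an adjusted p under 0.05. Circles and diamonds lie together or circles lie to the right in most cholesterol genes, whereas every ribosome biogenesis gene has its circle to the left of its diamond.

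Other metabolic lists were less uniform. Amino acid genes had 5 rises and 3 falls of 18, the falls near the 14.6% called lower over all genes, at a median of 0.11 against 1.42 in vehicle. Slc7a1 (2.41) and Slc38a1 (2.12) rose, while Slc7a5, the large neutral amino acid transporter, was not called under CsA (log2 change -0.00) and rose by 3.35 in vehicle, with a called interaction. Glycolysis genes had 9 rises and 4 falls of 19 on the TMM scale, and 5 rises and 7 falls with library totals, so no direction is given for them. Chaperones had 7 rises and no fall of 14, and 4 rises with library totals. Messenger RNA decay regulators had 6 rises of 12, led by Zfp36l1 (2.27) and Zfp36 (1.89), with none called when all 12 libraries were used.

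**Figure D5:**
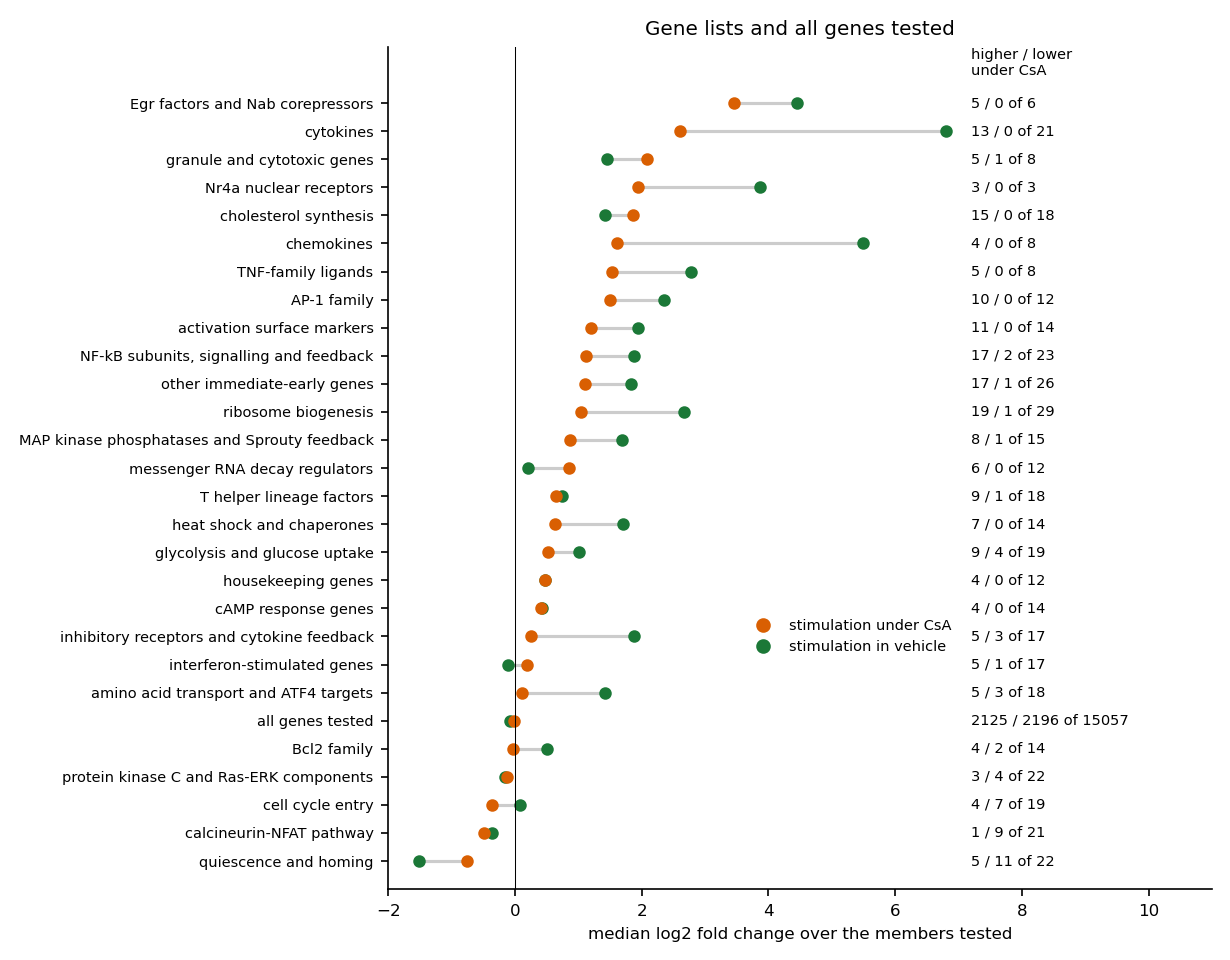
Median log2 fold change of each gene list under CsA and in vehicle over the members tested, with all genes tested for comparison; the numbers at the right are members called higher and lower under CsA of those tested. The cholesterol list lies further right under CsA (1.86) than in vehicle (1.42), and cytokines have the widest gap (2.61 and 6.80).

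Falls under CsA included genes of the resting state. Of 22 quiescence and homing genes, 11 fell and 5 rose, at a median of -0.76 against -1.51 in vehicle. The falls are 2 with all 12 libraries, and the rises numbered 2 without CsA_PI 1, none without CsA_PI 3 and 1 with library totals. Klf2, which maintains quiescence and the egress receptor S1pr1, went from 107, 152 and 196 CPM to 8.78 and 10.4 CPM, as low as the 15.9, 8.06 and 22.2 CPM of ethanol_PI. Its log2 change was -4.01 ± 0.45 (adjusted p = 9.79e-05) against -2.45 in vehicle, and the difference was not called (adjusted p = 0.089). Txnip, an inhibitor of glucose uptake (-3.54 against -4.05), and Klf3 (-3.08 against -2.47) also fell. Txnip stood at 456 CPM in the library labelled CsA_PI 2 and at 26.6 and 35.6 CPM in CsA_PI 1 and 3, and with all 12 libraries its change was -1.05 (adjusted p = 0.474).

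S1pr1, the sphingosine receptor for leaving lymphoid tissue, kept only part of its fall. It went from 822, 790 and 785 CPM to 317 and 313 CPM under CsA and to 27.3, 29.6 and 30.4 CPM in vehicle. The log2 changes of -1.36 and -4.38 differed (interaction 3.01, adjusted p = 1.65e-05). Falls were likewise smaller under CsA for Il7r (-1.54 against -3.30), S1pr4 (-2.38 against -3.80) and Cdkn1b (-2.22 against -4.09), all with called interactions. Tcf7, a factor of naive T cells, was not called under CsA (-0.18) and fell by 2.82 in vehicle. Il6ra, the interleukin 6 receptor, did the reverse, from 251, 212 and 215 CPM to 31.2 and 27.7 CPM under CsA but to 131, 105 and 111 CPM in vehicle. Its interaction of -2.11 was called (adjusted p = 9.88e-05).

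Outside the lists, Rflnb, a filamin-binding protein, had one of the largest falls. It went from 512, 365 and 420 CPM to 9.65 and 9.09 CPM, and to 9.92, 4.85 and 7.73 CPM in vehicle. The log2 changes were -5.55 ± 0.30 (adjusted p = 1.96e-07) and -5.71. Pdk2, a pyruvate dehydrogenase kinase (-4.84), Fbxo32, a ubiquitin ligase of atrophy (-3.88), Tbxa2r, the thromboxane receptor (-3.77), and Rhod (-5.34) also fell in both settings. These genes lay near their CsA_US level in the library labelled CsA_PI 2, at 327 CPM for Rflnb and 57.2 CPM for Tbxa2r. None of these 5 was called with all 12 libraries.

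Some genes rose more under CsA than in vehicle, or under CsA alone. Mmp10, the matrix protease stromelysin 2, went from 3.74, 7.39 and 5.85 CPM to 293 and 575 CPM under CsA and to 18.8, 18.5 and 26.1 CPM in vehicle. All CsA-stimulated values but that of the library labelled CsA_PI 2 (7.75 CPM) were the highest of the series. The log2 change was 6.25 ± 0.43 (adjusted p = 4.92e-06) against 1.97, and the interaction of 4.28 ± 0.54 was called (adjusted p = 0.000651). Its neighbours Mmp13 (6.59, from 8 counts) and Mmp12 (3.33) rose as well, and Mmp12 was not called in vehicle (0.44).

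Tnfrsf23, a decoy receptor for TRAIL, was at 4.16, 7.26 and 5.25 CPM in CsA_US, 47.2 and 50.2 CPM in CsA_PI 1 and 3, and 4.13, 6.99 and 6.02 CPM in ethanol_PI. It rose by 3.12 under CsA and was not called in vehicle (0.03), and the interaction was called (3.09, adjusted p = 0.00101). Tnfsf4, the OX40 ligand, rose from 1.56, 3.32 and 3.52 CPM to 18.4 and 17.7 CPM, against 2.01, 2.14 and 2.09 CPM in ethanol_PI (interaction 3.43, adjusted p = 0.0046). Pakap (4.88), Mast4 (3.24) and Gas2l3 (3.02) rose under CsA, were not called in vehicle and had called interactions. Cd28, the costimulatory receptor, rose from 340, 276 and 274 CPM to 893 and 891 CPM, while it fell in vehicle to 253, 218 and 250 CPM (interaction 2.08, adjusted p = 9.04e-05).

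Further genes with a called positive interaction were Bcl2l11, the death-promoting BIM (2.56 against 1.27), Pde4a, which degrades cAMP (2.42 against 0.72), Hif1a (2.18 against 1.38), Zfp36l2 (1.63 against 0.19) and Actb (2.32 against 1.00). Actb, often taken as constant, stood at 2830, 3311 and 2591 CPM in CsA_US and at 15700 and 13660 CPM in CsA_PI 1 and 3. Of 12 housekeeping genes 4 rose and none fell, or 2 rose and 2 fell with library totals. Interferon-stimulated genes gave 5 rises and 1 fall of 17, with Ifit1 (1.99), Isg15 (2.06) and Ifit3 (2.10) higher under CsA. In vehicle 3 were called higher and 7 lower, and interactions were called positive for 6 members. Summed over the list, CsA_PI 1 and 3 held 1216 and 1520 CPM and CsA_US 1370, 896 and 1152 CPM, so these groups overlapped. All ethanol_US libraries lay higher, at 1752, 1674 and 1999 CPM. With library totals the list had 3 rises and 4 falls, and Ifit3 has a near-identical neighbour, Ifit3b, with which reads may be split.

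Promoters of Mmp10, Cxcl10 and Gzmb are shown for AP-1 sites, the letters TGANTCA, which are searched on both strands. They were chosen because they hold a match, and only 5 of the 21 named risen genes searched had one. The sequences are from RefSeq on GRCm38.p6 as before, 250 bases before the start, in the direction of the gene. Mmp10 (chr9:7502352-7510240, plus strand) holds an AP-1 match 63 bases before its start and an NFAT core on the opposite strand at 209. Cxcl10 (chr5:92346638-92348889, minus strand, within an intron of Art3) holds an AP-1 match at 74, kappaB matches at 159, 104 and 103, and NFAT cores at 214, 158 and 35. Gzmb (chr14:56258838-56262260, minus strand) holds an AP-1 match at 58 and no other motif searched. Distances count from the RefSeq start, which for Mmp10 and Gzmb lies upstream of the gene start printed here.
Mmp10 (chr9:7502092-7502341, plus strand): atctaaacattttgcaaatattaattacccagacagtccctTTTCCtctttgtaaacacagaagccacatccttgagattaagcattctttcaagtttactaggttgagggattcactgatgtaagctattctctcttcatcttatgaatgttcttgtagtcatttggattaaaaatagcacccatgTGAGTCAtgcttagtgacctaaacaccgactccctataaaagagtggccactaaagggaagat
Cxcl10 (chr5:92348890-92349139, minus strand): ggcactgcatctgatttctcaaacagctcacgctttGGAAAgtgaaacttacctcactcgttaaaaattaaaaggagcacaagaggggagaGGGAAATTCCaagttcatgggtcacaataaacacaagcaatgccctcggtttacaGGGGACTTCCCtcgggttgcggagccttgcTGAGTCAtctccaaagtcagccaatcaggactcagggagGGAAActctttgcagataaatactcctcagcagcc
Gzmb (chr14:56262335-56262584, minus strand): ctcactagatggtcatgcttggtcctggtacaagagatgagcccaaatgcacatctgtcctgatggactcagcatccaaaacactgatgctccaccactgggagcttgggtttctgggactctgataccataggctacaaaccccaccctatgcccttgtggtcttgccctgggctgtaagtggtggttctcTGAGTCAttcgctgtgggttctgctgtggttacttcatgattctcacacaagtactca

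Over whole sets of promoters, 300 bases each with 50 past the start, AP-1 letters were found in 8.99% of 1057 promoters of genes that rose at least 2-fold under CsA, in 3.31% of 1420 promoters of genes that fell and in 5.3% of 13138 promoters of all genes tested. Matches to the kappaB site were in 13.2%, 9.51% and 10.3%, and CArG boxes in 1.89%, 1.48% and 1.4%. The NFAT core GGAAA, too short to be rare, was in 62.5%, 56.2% and 59.3%. The CRE letters TGACGTCA were in 3.88%, 2.04% and 2.95%, EGR letters (GCGGGGGCG or GCGTGGGCG) in 6.72%, 5.99% and 6.07%, and ETS letters (CCGGAAG) in 14.4%, 15.1% and 17.2%. An NFAT core can lie inside a kappaB or CArG match. Within the vehicle-induced genes, 1043 promoters of those called higher under CsA were set beside 834 promoters of the rest. ETS letters were in 209 and 101 of them (12.1% of the latter), the NFAT core in 64.1% and 59.5%, kappaB matches in 12.5% and 11.2%, AP-1 letters in 8.05% and 6.83%, EGR letters in 7.09% and 7.55%, CRE letters in 3.84% and 2.76%, and CArG boxes in 2.01% and 0.839%. Of the genes tested, 10331 of 15057 were matched to a promoter. These shares describe letters, not binding, and were not tested.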

How the data were processed

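Per the submitters' processing notes, cutadapt and kallisto were the tools and mm10 the genome; versions and the transcript annotation are not given in the sources used here. The deposited tables give, per the file headers, an estimated count and a TPM for each transcript, both computed by the authors for each library. Of 109617 transcripts, 108214 were matched to GENCODE genes on GRCm38, and the 1403 others (0.494% to 0.628% of counts) were left out. Estimated counts were summed per gene and rounded; TPM served in 1 alternative only.

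The main fit used edgeR 4.0.16 in R 4.3.3 on 11 libraries in 4 groups: TMM, a filter by group (minimum count 10, total 15), robust quasi-likelihood tests, and Benjamini-Hochberg adjusted p-values under 0.05. SE is the absolute log2 change over the square root of F. Levels are TMM-scaled CPM. Code was tested on simulated data. The 32 gene lists (479 symbols) and all members were chosen with earlier results of these data known, so no list is independent evidence of its direction. Batf3, Rcan2, Tnfsf13b, Cd70 and Ly6g did not pass the filter.

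Named genes are 22 fixed genes; the 12 largest rises and falls with at least 10 CPM and no overlap; up to 4 members per list; the 8 largest rises shared with vehicle without a called interaction; the 8 largest interactions each way; and up to 8 genes called only under CsA or in opposite directions, called being the threshold above. Other list members were named after their values were seen. Some list members enter the counts but are not reported here by name. Alternatives were other scalings, filters, tools (DESeq2 1.42.0, limma 3.58.1), a replicate block, and libraries left out. Floors cover counting error only.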

Additional observations from a re-analysis of the deposited data

Results flagged for a closer look

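The naming rule took the 8 genes that differed most among those called in opposite directions under CsA and in vehicle. That number is the limit of the rule, not a count of such genes. Of the genes changed at least 2-fold under CsA, 36 that rose were called lower in vehicle and 23 that fell were called higher. For each of the 8 the difference itself was called, which a choice by size favours. Neurl3, a ubiquitin ligase, rose under CsA from 412, 514 and 485 CPM to 1250 and 1168 CPM and fell in vehicle to 93.2, 79.0 and 99.6 CPM (interaction 3.44, adjusted p = 2.57e-05). Gtf2i, a general transcription factor, did the same, from 455, 366 and 446 CPM to 995 and 864 CPM under CsA against 108, 96.8 and 113 CPM in vehicle (interaction 3.03). The interferon-stimulated Ifit3 and its near copy Ifit3b, which share sequence, had interactions of 3.53 and 5.63. Neurl3 and Gtf2i missed the threshold for the change under CsA when all 12 libraries were used (adjusted p = 0.0599 and 0.0998).

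The other 4 fell under CsA and rose in vehicle. Frat2 had an interaction of -5.79, with 6.43, 17.5 and 13.7 CPM in CsA_US, 1.98 and 0.587 CPM in CsA_PI 1 and 3, and 49.3, 28.4 and 50.2 CPM in ethanol_PI. Rcan1 had an interaction of -3.24, Txnrd3 of -3.19 and Pdxp of -3.05. The falls of Txnrd3 (-0.59, adjusted p = 0.0392) and Pdxp (-0.79, adjusted p = 0.0249) lay near the threshold, and both were lost without CsA_PI 1 (adjusted p = 0.119 and 0.25), as was that of Rcan1 (adjusted p = 0.0588).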

How the results depend on the processing

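Of the 138 named genes called, none changed sign under the settings run. Uncalled genes did cross 0, such as Nfkbia (-0.20) and Nfatc1 (-0.33) with library totals, which also turned the balance of glycolysis and interferon-stimulated genes as given above. With the library labelled CsA_PI 2 kept, 561 genes were higher and 199 lower under CsA, and with the replicate block added, 362 and 79. Leaving out 1 of the other 11 libraries from that 12-library fit gave 0 to 462 higher and 0 to 177 lower. The counts were 209 and 59 without ethanol_US 3, and 462 and 177 without ethanol_US 2. Otherwise 0, 1, 3, 4 or 6 were higher and 0 lower. This held also on leaving out ethanol_PI libraries, which are not in the comparison, so the 12-library counts are unstable. Over vehicle-induced genes the calls were then 400 and 265 (block) and the ratio 0.351 and 0.344; interactions above 0 were 509; list members called higher were 102 and 65, lower 9 and 5.

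Library totals gave 1211 and 3695 under CsA, 1811 and 6034 in vehicle, 1184 interactions above 0, 547 induced genes called, a ratio of 0.406 and 83 list members lower. Testing against a 1.5-fold change gave 978 and 1005, 2030 and 2163, and 294 and 529 interactions above and below 0. A log2 change of at least 2 in vehicle left 502 of 848 genes (59.2%). Without 1 library of the 11, counts under CsA ran from 1303 (without CsA_PI 3) to 2264 higher and from 1173 (without CsA_PI 1; 1439 without CsA_PI 3) to 2289 lower. Interactions then ran from 372 to 849 above 0 and from 689 to 1173 below, the ratio from 0.434 to 0.478, and list members called lower from 30 to 56.

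The replicate block on 11 libraries gave 2397 and 2434 calls under CsA and moved no count of calls over all genes by over 1.5 times. Counts of some short lists did move. Inhibitory genes called higher were 8 in place of 5. Granule genes called lower were 2 in place of 1, and interferon-stimulated genes called lower 0 in place of 1. Marker counts with the block are given with the markers above. Equally numbered vehicle libraries deviated together (correlations 0.128, 0.305 and 0.188), whereas the CsA values of 0.00344 and 0.0792 come from 2 stimulated libraries whose deviations mirror each other and say little. Across the drug, ethanol_US 3 with CsA_US 3 correlated at 0.9821 and ethanol_US 1 with CsA_US 1 at 0.9793. Both values lay above every same-group pair (at most 0.9784), while ethanol_US 2 with CsA_US 2 stood at 0.9718. Libraries of equal number thus shared variation, which the main fit does not block. The labels do not say what the number marks. Of 170 named genes, 6 were called with the block only, among them Il21 (1.78, adjusted p = 0.0484) and Cd79b, and 2 without it only. Libraries numbered 1 and 3 only, a setting chosen after seeing the data, gave 2130 and 2307. Of 138 named genes called, 120 were called at every setting without the library labelled CsA_PI 2, and 76 with it. With 2 stimulated libraries, small changes and genes of few counts (Il2, Mmp13, Il13) are the least certain. For results that moved, the cause was not tested.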
